A study of Danio rerio with 3 samples.

Results

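Stathmins are small phosphoproteins that bind tubulin dimers and promote the disassembly of microtubules. In mammals, stathmin 1 is cytosolic and is known from proliferating cells as well as neurons, whereas stathmin 2 (SCG10) and stathmin 4 (RB3) are neuronal, are anchored to membranes and are found in growth cones. Zebrafish keep pairs of copies of the first genes of the family (stmn1a and stmn1b, stmn2a and stmn2b). The other genes described here are widely used to mark neurons: elavl3 (HuC) and elavl4 (HuD) encode RNA-binding proteins that bind and stabilise neuronal mRNAs, gng3 encodes a neuronal gamma subunit of heterotrimeric G proteins, and gap43 encodes a membrane-associated protein of growing axons.

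These 9 genes were taken by symbol from the 25109 gene rows of 3 single-cell RNA matrices, and all 9 were found. Their identifiers in the files are ENSDARG00000004169 (stmn1a), ENSDARG00000033655 (stmn1b), ENSDARG00000033234 (stmn2a), ENSDARG00000070537 (stmn2b), ENSDARG00000030106 (stmn4), ENSDARG00000014420 (elavl3), ENSDARG00000045639 (elavl4), ENSDARG00000009553 (gng3) and ENSDARG00000099744 (gap43). The matrices hold droplet-based counts of unique molecular identifiers (UMIs), in which a molecule is counted once from its 3′ end, from zebrafish ear tissue and its surroundings at about 22 h post-fertilisation. There was 1 library of shox2{delta}/{delta} mutants, 1 of shox2{delta}/+ heterozygotes and 1 of shox2+/+ wild-type embryos. Embryos were pooled by genotype, and the study's methods pool several stages for the mutant and wild-type libraries and do not describe the heterozygote library. shox2 encodes a homeobox transcription factor, and the {delta} allele lacks sequence near the start of the gene.

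The wild-type embryos carried a neurog1 reporter with DsRed and a neurod1 reporter with EGFP, and the mutants were the non-fluorescent embryos of a line that carries a shox2 Gal4 driver and a UAS reporter. Levels are given in CPM, the UMIs of a gene divided by all UMIs of the same cells and scaled to 1000000. In neuron-like cells, 2 clusters with raised markers of young neurons, DsRed had 3.74 CPM in mutant, 27.0 CPM in heterozygote and 864 CPM in wild-type, and EGFP had 5.23 CPM in mutant, 2814 CPM in heterozygote and 1198 CPM in wild-type. shox2 itself had 131 UMIs in mutant, 713 in heterozygote and 388 in wild-type over all kept cells, and 8.72 CPM in mutant, 30.6 CPM in heterozygote and 29.2 CPM in wild-type neuron-like cells. By the study's description the deletion lies in the first exons, so counts taken from the 3′ end do not show whether the deleted sequence is present. With 1 library per genotype, genotype, reporter background, pooled stages and library cannot be told apart, no difference between libraries has a replicate check, and no p-value was computed. All intervals below are 95% intervals that cover counting error only.

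A barcode was kept as a cell where at least 500 but under 6500 genes had a UMI and mitochondrial transcripts made up less than 5%. This left 6672 of 8877 barcodes in mutant, 8233 of 10419 in heterozygote and 8548 of 10466 in wild-type. The kept cells held 131099920, 157573577 and 176280326 UMIs, with a median of 17494, 16570 and 19450 UMIs per cell. Some barcodes occurred in more than 1 library: 551 were shared by the mutant and wild-type libraries, 190 by mutant and heterozygote and 66 by heterozygote and wild-type. Of the 551, the mutant copy was the shallower in 543, at a median of 1114 UMIs against 40976 UMIs in the wild-type copy, and 66.2% of them fell in the same cluster. Barcodes shared by any 2 libraries made up 35 of 238 mutant, 6 of 303 heterozygote and 26 of 420 wild-type neuron-like cells, and their shallower copies held 0.768%, 0.0959% and 0% of the UMIs of that class. All copies, deep ones included, held 5.02%, 0.926% and 13.8% of them. The comparisons between libraries are therefore given with and without these cells.

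Cells of the 3 libraries were clustered together without the 9 genes, without a list of 106 other pan-neuronal genes and without the reporters and shox2, so that the levels below were not used to make the clusters. Of 41 clusters, 31 were named from marker lists that hold none of these genes, and 12 named classes had at least 50 cells in every library. Neuron-like cells were clusters 3 and 36, with 19 and 15 of 19 neuron markers raised. Cluster 3, led by otpa, scrt1a and otpb, held 127 mutant, 200 heterozygote and 323 wild-type cells, or 53.4%, 66.0% and 76.9% of the class. Cluster 36, led by foxn4, vsx1 and sst1.2, held the other 111, 103 and 97 cells, at a median of 2999, 3856 and 16548 UMIs per cell. Cranial sensory neuron-like cells were cluster 35 (113, 92 and 93 cells), with 12 of 15 markers of its list raised and isl2b and neurod1 among the leading genes. Neural progenitor-like cells were 10 clusters with 1807, 2487 and 3057 cells. Cluster 31, led by cort, trh and phox2a (30, 39 and 45 cells), stayed unnamed, although 14 of 19 neuron markers were raised in it.

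Most of the 9 genes were many times higher in the neuron-like class than in the neural progenitor-like class, while stmn1a was lower in the class as a whole. Of the 9, 7 were at least 2-fold higher in neuron-like than in neural progenitor-like cells in all 3 libraries (stmn1b, stmn2a, stmn2b, elavl3, elavl4, gng3 and gap43), stmn1a was at least 2-fold lower in all 3, and stmn4 was higher by 4.24-fold in mutant, 6.52-fold in heterozygote and 1.99-fold in wild-type. Among 2739 genes with at least 50 CPM in either class in each library, 24.2% were at least 2-fold higher in all 3 libraries and 17.7% lower. All 9 entered the comparison, but stmn1b, stmn2a, stmn2b, elavl4, gng3 and gap43 did so only through neuron-like cells, which fixes their direction. The same 7 genes were higher, and stmn1a lower, in cranial sensory neuron-like than in neural progenitor-like cells, where 23.1% of 2733 genes were higher and 14.5% lower. Only 8 of the 9 entered this comparison, as stmn4 did not. Of these, stmn1b, stmn2a, stmn2b, elavl4, gng3 and gap43 entered only through cranial sensory neuron-like cells, which again fixes their direction. Between cranial sensory neuron-like and neuron-like cells, 0 of the 9 were 2-fold higher and 0 were 2-fold lower in all 3 libraries, where 5.66% of 2545 genes were higher and 4.83% lower. These counts rest on a size of difference that recurred in each library and on no test.

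**Figure D1:**
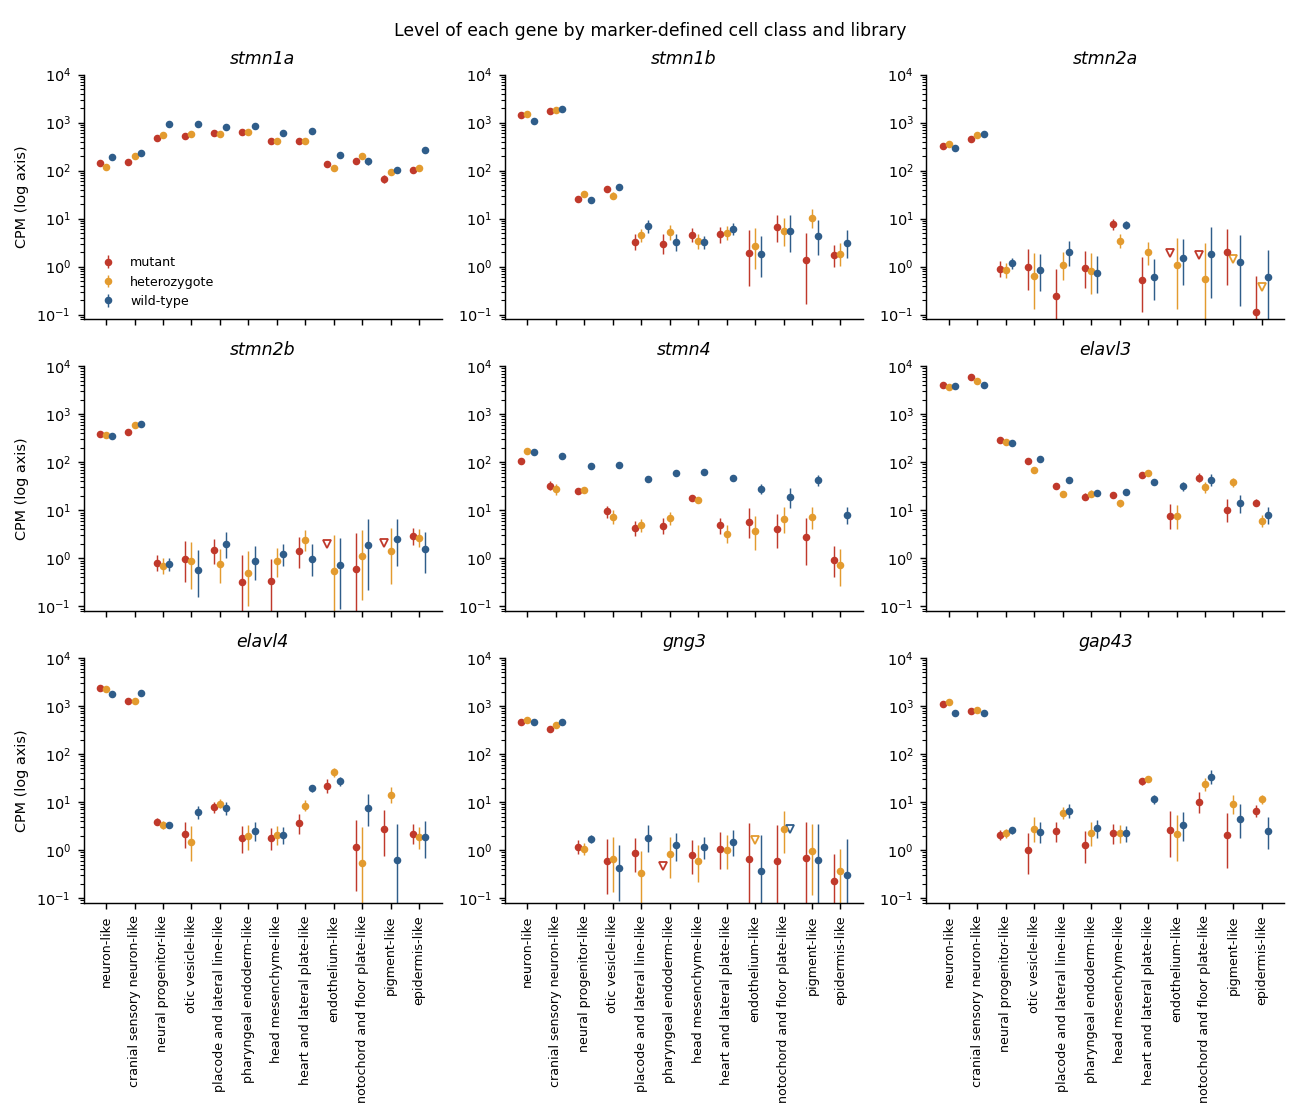
Level of each of the 9 genes in CPM (log axis) in 12 marker-defined classes, with 1 point per library and bars for exact Poisson 95% intervals of the counts; open triangles mark the level that 3 UMIs would give where no UMI was found. stmn2a, stmn2b, elavl4, gng3 and gap43 stand far above the other classes in both neuron classes, while stmn1a is spread over all classes and stmn4 is highest in wild-type in nearly all of them.

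In neuron-like cells the RNA-binding protein genes had the highest levels of the 9. elavl3 had 4005 CPM in mutant, 3669 CPM in heterozygote and 3830.1 CPM in wild-type neuron-like cells, and 6023 CPM in mutant, 4889 CPM in heterozygote and 4056 CPM in wild-type cranial sensory neuron-like cells. elavl3 was also the most widespread of the 7 genes at least 2-fold higher in neuron-like than in neural progenitor-like cells in every library. It had 288 CPM in mutant, 259.7 CPM in heterozygote and 249 CPM in wild-type neural progenitor-like cells, a level 13.9-, 14.1- and 15.4-fold below that of neuron-like cells of the same library. A pair of the 10 progenitor-like clusters held most of it. Cluster 9, in which 12 of 19 neuron markers were raised beside 13 of 19 progenitor markers, made up 8.80% of the class in mutant, 8.04% in heterozygote and 9.52% in wild-type, and had 58.9%, 60.5% and 54.5% of its elavl3 UMIs. Cluster 2 had another 22.5%, 16.5% and 20.9%. In the other 8 clusters, elavl3 had 63.5 CPM in mutant, 70.7 CPM in heterozygote and 73.6 CPM in wild-type, so the mean of the class does not describe most of its cells. Among the 9 classes other than neuron-like, cranial sensory neuron-like and neural progenitor-like cells, its highest level was in otic vesicle-like cells. It was 107 CPM in mutant, 69.1 CPM in heterozygote and 117 CPM in wild-type there. The 9 include notochord and floor plate-like cells, and floor plate belongs to the neural tube. These classes leave out small and unnamed clusters. Cluster 39, an unnamed cluster of 201 cells with 15 of 15 epidermis markers raised, had 435 CPM of elavl3 over all libraries.

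elavl4 was far more restricted. Its level was 2334 CPM in mutant, 2303 CPM in heterozygote and 1739.6 CPM in wild-type neuron-like cells, against 3.90 CPM in mutant, 3.34 CPM in heterozygote and 3.39 CPM in wild-type neural progenitor-like cells. Cranial sensory neuron-like cells had 1261 CPM in mutant, 1270.4 CPM in heterozygote and 1913 CPM in wild-type. In these 9 classes, elavl4 was highest in endothelium-like cells, with 22.0 CPM (interval 15.3 to 30.8) in mutant, 41.3 CPM (interval 32.6 to 51.7) in heterozygote and 27.1 CPM (interval 21.2 to 34.0) in wild-type, where gng3, stmn2a and stmn2b had between 0 and 4 UMIs in a library. In these vascular cells gap43 had 4, 4 and 9 UMIs.

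gap43 and gng3 followed the same division. gap43, known from growing axons, had 1111 CPM in mutant, 1207 CPM in heterozygote and 727 CPM in wild-type neuron-like cells, against 2.04 CPM in mutant, 2.25 CPM in heterozygote and 2.57 CPM in wild-type neural progenitor-like cells. Cranial sensory neuron-like cells had 796 CPM in mutant, 838 CPM in heterozygote and 704 CPM in wild-type. In the 9 other classes its highest level was 26.9 and 30.4 CPM in heart and lateral plate-like cells of the mutant and heterozygote libraries, and 33.3 CPM in the notochord and floor plate-like class of wild-type. gng3 was close to absent from the 9 other classes. It had 458 CPM in mutant, 521 CPM in heterozygote and 454 CPM in wild-type neuron-like cells, and its highest level in any of these was 1.07, 2.73 and 1.82 CPM in mutant, heterozygote and wild-type.

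Within the stathmins, the 2 copies of stmn1 went opposite ways. stmn1a had 142 CPM in mutant, 121 CPM in heterozygote and 190.0 CPM in wild-type neuron-like cells, against 469 CPM in mutant, 548 CPM in heterozygote and 912 CPM in wild-type neural progenitor-like cells, which is 0.303, 0.220 and 0.208 times the level of the progenitors. This mean does not describe both neuron-like clusters. Over all libraries, stmn1a had 61.6 CPM in cluster 3 and 492 CPM in cluster 36. The progenitor-like clusters ranged from 330 to 1128 CPM, so cluster 36 lay within their range. stmn1b had 1450.2 CPM in mutant, 1492 CPM in heterozygote and 1075 CPM in wild-type neuron-like cells, against 25.6 CPM in mutant, 32.9 CPM in heterozygote and 24.8 CPM in wild-type neural progenitor-like cells, which is 56.7-, 45.4- and 43.3-fold higher in neuron-like cells. stmn1a was abundant in the 9 other classes as well, from 67.3 CPM in pigment-like cells to 639 CPM in pharyngeal endoderm-like cells of the mutant library, whereas stmn1b reached at most 41.3 CPM in mutant, 29.9 CPM in heterozygote and 44.8 CPM in wild-type there, each time in otic vesicle-like cells. Clusters with too few cells for these classes went beyond this range for stmn1a, down to 18.1 CPM in hatching gland-like cells over all libraries. Cluster 39 had 80.0 CPM of stmn1b.

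The stmn2 copies were alike in their distribution. stmn2a had 325 CPM in mutant, 355 CPM in heterozygote and 301 CPM in wild-type neuron-like cells and stmn2b had 382 CPM in mutant, 376 CPM in heterozygote and 359.7 CPM in wild-type. In neural progenitor-like cells they had between 0.701 and 1.17 CPM. Across 39 clusters of at least 50 cells, the Pearson correlation of their log2(CPM + 1) values was 0.96, against 0.06 for stmn1a and stmn1b; clusters share the 3 libraries, so these values describe the data and carry no p-value. In head mesenchyme-like cells, stmn2a had 7.59 CPM in mutant, 3.49 CPM in heterozygote and 7.44 CPM in wild-type and stmn2b had 0.335 CPM in mutant, 0.872 CPM in heterozygote and 1.23 CPM in wild-type.

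The distribution of stmn4 depended on the library. It had 108 CPM in mutant, 175 CPM in heterozygote and 164 CPM in wild-type neuron-like cells and 32.9 CPM in mutant, 27.2 CPM in heterozygote and 133 CPM in wild-type cranial sensory neuron-like cells. Neural progenitor-like cells had 25.5 CPM in mutant, 26.9 CPM in heterozygote and 82.2 CPM in wild-type, and the median of the 9 other classes was 4.76 CPM in mutant, 6.56 CPM in heterozygote and 45.3 CPM in wild-type. Neuron-like cells stood far above the other classes in the mutant and heterozygote libraries, and less so in the wild-type library.

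The share of all UMIs of a gene that came from neuron-like cells, cranial sensory neuron-like cells and cluster 31 was high for most of the genes. It was between 92.4% and 97.2% for stmn2a, stmn2b, elavl4, gng3 and gap43 in every library. stmn1b followed with 84.8% in mutant, 81.6% in heterozygote and 81.1% in wild-type, and elavl3 with 65.1% in mutant, 62.5% in heterozygote and 58.6% in wild-type. For stmn4 it was between 12.6% (wild-type) and 31.9% (heterozygote). For stmn1a it was 1.92% in mutant, 1.59% in heterozygote and 1.53% in wild-type, and most stmn1a molecules lay outside these cells. The shares are not set against the share of all UMIs that these cells held, which was a small part of each library.

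The mix of the 5 stathmins among the 9 genes differed accordingly between classes. Further stathmins were not counted in it. Of these, stmn3 had 214 CPM in mutant, 225 CPM in heterozygote and 126 CPM in wild-type neuron-like cells, and stmn4l had 147, 144 and 86.6 CPM. In neuron-like cells, the share of stmn1b among the UMIs of the 5 stathmins was 60.2% in mutant, 59.2% in heterozygote and 51.4% in wild-type, and that of stmn1a 5.90% in mutant, 4.79% in heterozygote and 9.09% in wild-type. In neural progenitor-like cells, the share of stmn1a was 89.9% in mutant, 89.9% in heterozygote and 89.3% in wild-type, nearly the same share in each library although its level differed. Cluster 9, a progenitor-like cluster led by ccndx and with neurod4, dla and dld among its leading genes, lay between them: its stmn1b share was 22.9% in mutant, 22.7% in heterozygote and 11.3% in wild-type. neurod4 is a proneural factor, and dla and dld encode Delta ligands of the Notch pathway. The stmn4 share of this cluster was 2.85% in mutant, 1.77% in heterozygote and 13.3% in wild-type.

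**Figure D2:**
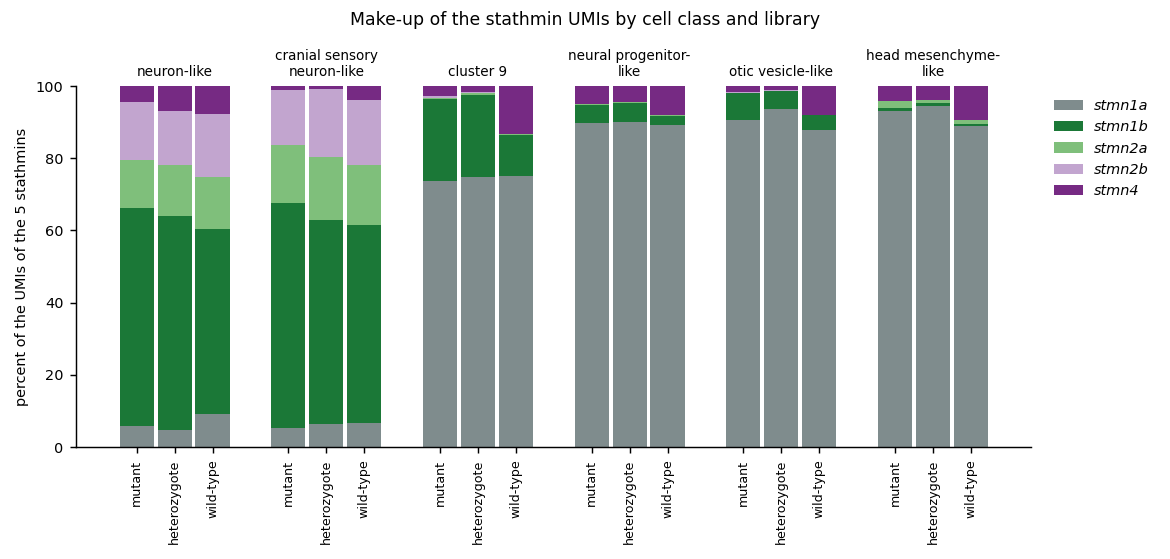
Percent of the UMIs of 5 stathmin genes contributed by each gene in 5 classes and in cluster 9, with 1 bar per library. stmn1b fills the largest piece of each bar in both neuron classes and stmn1a the largest piece of each bar elsewhere, cluster 9 included.

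elavl3 and stmn1b were found in the most neuron-like cells. Each cell was thinned to 3000 UMIs, which left 181 of 238 mutant, 260 of 303 heterozygote and 400 of 420 wild-type neuron-like cells. Cluster 36 had a median of 2999 UMIs in mutant, 3856 in heterozygote and 16548 in wild-type, so the cells left may mix the 2 clusters differently by library. The share of them with a UMI of elavl3 was 97.2% in mutant and 98.5% in heterozygote, and every wild-type cell had one. For stmn1b the share was 85.6% in mutant, 87.7% in heterozygote and 81.0% in wild-type. elavl4, gap43 and gng3 were found in between 45.3% and 58.2%, and stmn2a and stmn2b in between 29.8% and 41.2%. For stmn1a it was 27.1% in mutant, 18.8% in heterozygote and 26.2% in wild-type neuron-like cells, against 64.3% in mutant, 70.1% in heterozygote and 84.3% in wild-type neural progenitor-like cells. In endothelium-like cells, which should lack neuronal genes, the shares were 3.70% in mutant, 2.25% in heterozygote and 6.87% in wild-type for elavl3 and 1.23% in mutant, 7.87% in heterozygote and 7.63% in wild-type for elavl4. Without thinning, elavl4 was found in between 10.4% (mutant) and 20.4% (wild-type) of the endothelium-like cells of a library. No thinned cell had a UMI of gng3 (0 of 81, 89 and 131 cells, which allows a share of cells with a UMI at this depth of up to 3.70%, 3.37% and 2.29%, and does not limit the share that expresses the gene). Before thinning, the median depth was 17058 UMIs in mutant, 17194 UMIs in heterozygote and 16698 UMIs in wild-type neuron-like cells and 8458 UMIs in mutant, 17629 UMIs in heterozygote and 18022 UMIs in wild-type endothelium-like cells.

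To order the genes without using them, the 10708 cells of the 17 neural clusters with at least 3000 UMIs were grouped by how many of the 106 other pan-neuronal genes had a UMI after thinning. The count orders cells by their other neuronal transcripts and is not a measure of time. At least 15 such genes were found in 13.8% of mutant, 13.0% of heterozygote and 18.9% of wild-type cells. At least 20 were found in 8.95% of mutant, 8.46% of heterozygote and 9.91% of wild-type cells. The group with 15 to 19 genes held 127 mutant, 161 heterozygote and 410 wild-type cells, so its levels over all libraries rest mostly on wild-type cells. The 9 genes took 5 courses along this count.

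elavl3 came first. Over all libraries it had 128 CPM in cells with 0 to 9 of the genes, 384 CPM with 10 to 14, 2327 CPM with 15 to 19, 5846 CPM with 20 to 24 and 3298 CPM with 40 or more. The level in cells with 20 to 24 genes was 6321 CPM in mutant, 6151 CPM in heterozygote and 5313 CPM in wild-type, and in cells with 40 or more it was 3684 CPM in mutant, 3099.7 CPM in heterozygote and 3255 CPM in wild-type. In all 3 libraries the most neuronal cells therefore held less elavl3 than cells with 20 to 24 of the genes.

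stmn1b rose at higher counts than elavl3 and was highest in the top group. It had 38.1 CPM in cells with 10 to 14 of the genes, 198 CPM with 15 to 19, 667 CPM with 20 to 24, and 2458 CPM with 40 or more. At 20 to 24 genes it was at 27.1% of its level in the top group, and a UMI was found in 73.6% of the cells. In the same cells elavl4 was at 6.36%, gng3 at 4.84%, stmn2a at 2.48%, gap43 at 2.31% and stmn2b at 2.27% of their top level.

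These 5 genes rose at the highest counts and are called the late genes below, which refers to the count and not to time. In cells with 15 to 19 of the other genes they had between 0.955 CPM (stmn2b) and 22.4 CPM (elavl4) over all libraries. In cells with 40 or more, elavl4 had 3755 CPM, gap43 2079 CPM, gng3 993 CPM, stmn2b 875 CPM and stmn2a 803 CPM. Each of them was highest in the top group in every library.

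stmn1a ran the other way. It had 442 CPM in mutant, 575 CPM in heterozygote and 1023 CPM in wild-type cells with 0 to 9 of the genes, and 42.7 CPM in mutant, 39.9 CPM in heterozygote and 31.1 CPM in wild-type cells with 40 or more. stmn4 had a course of its own, which differed between the libraries. It varied less along the count in wild-type, with 78.8 CPM in cells with 0 to 9, 103 CPM with 20 to 24 and 217 CPM with 40 or more. In the mutant library it had 28.0 CPM in cells with 0 to 9, 1 UMI in those with 20 to 24 and 269 CPM in those with 40 or more. In the heterozygote library it had 22.3 CPM, 0 UMIs and 282 CPM. The stmn4 levels of the 3 libraries lay closer together in the top group than in the groups before it. The top group held 78 mutant, 117 heterozygote and 161 wild-type cells.

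**Figure D3:**
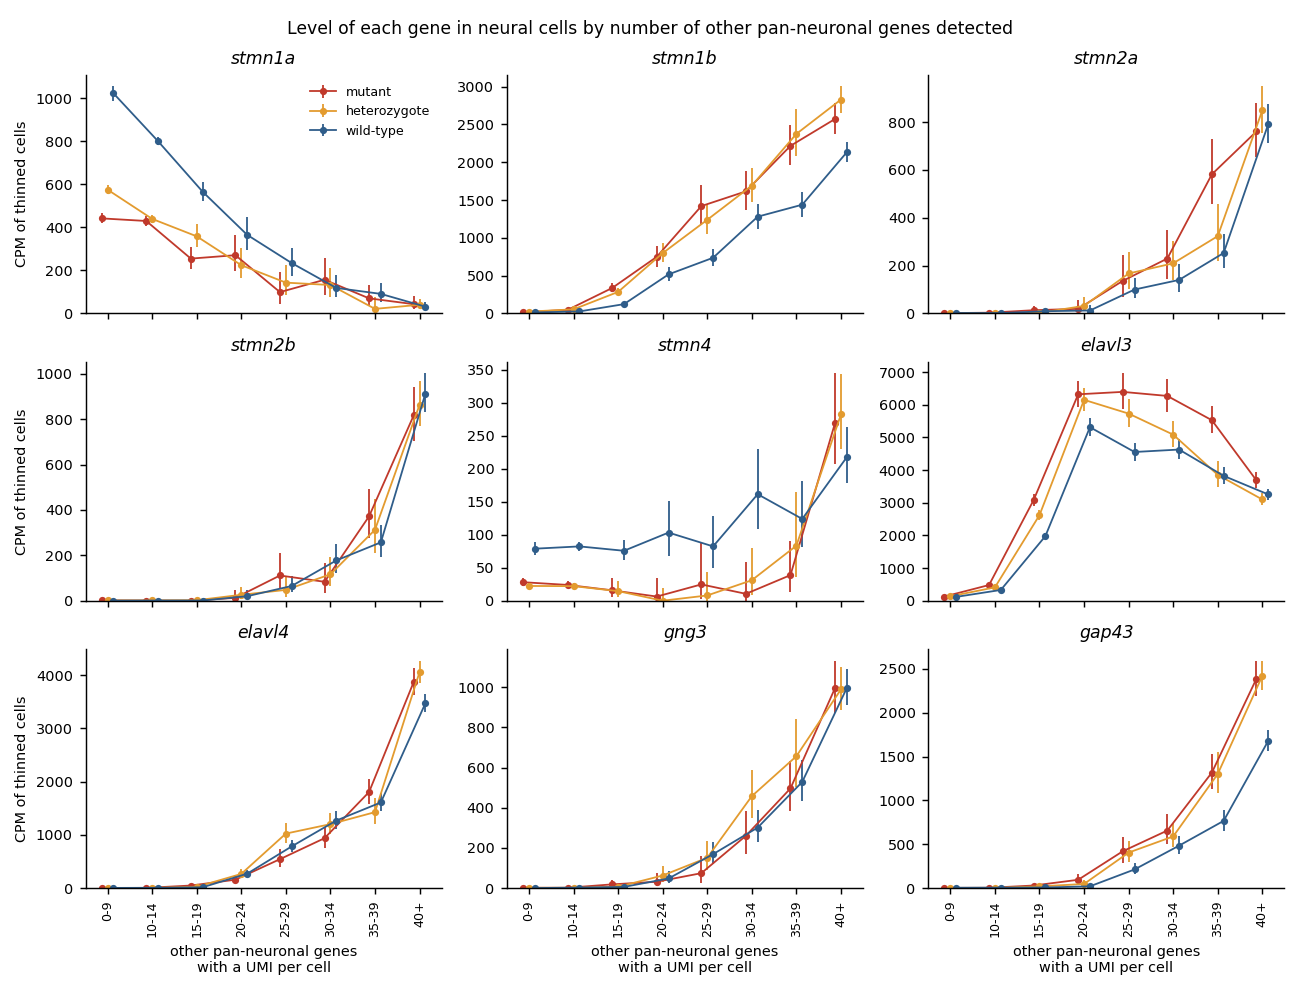
Level of each gene in CPM after thinning to 3000 UMIs per cell, in cells of 17 neural clusters grouped by the number of other pan-neuronal genes with a UMI; lines join the groups of 1 library and bars are exact Poisson 95% intervals. elavl3 is highest in the middle groups, stmn1b climbs from 15 genes on, stmn2a, stmn2b, elavl4, gng3 and gap43 climb at higher counts, and stmn1a is far lower in the last groups than in the first in all 3 libraries.

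Detection was also compared within the same cells. Of the neural cells with a UMI of stmn2a, stmn2b, elavl4, gng3 or gap43, between 92.0% and 95.7% also had a UMI of elavl3, against 38.0% of all 10708 cells. Of the cells with stmn1b it was 80.2%. In the reverse direction, 33.9% of the elavl3 cells had stmn1b, and between 10.3% and 18.0% had each of the 5 late genes. elavl3 was found in 4067 cells and the 5 late genes in between 438 (stmn2b) and 790 (elavl4). These counts limit the reverse shares, so the shares do not show an order of the genes. For stmn4 the share with elavl3 was 41.9% and for stmn1a 31.5%, close to or below that of all cells.

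Cluster 9 held elavl3 nearly without the late genes. Between 89.2% and 92.5% of its thinned cells had elavl3 in the 3 libraries, and at most 3.00% had elavl4, gng3, gap43, stmn2a or stmn2b. The share with stmn1b was 18.5% in mutant, 23.0% in heterozygote and 15.3% in wild-type. Its elavl3 level was 1982 CPM in mutant, 2066 CPM in heterozygote and 1630.4 CPM in wild-type, while gap43 had 4.41 CPM in mutant, 2.86 CPM in heterozygote and 5.01 CPM in wild-type.

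The genes most alike in their levels over the 39 clusters, among 6616 candidates with at least 50 CPM in a cluster, followed these groups. For gng3 they were kif3cb (Pearson r of 0.99), syngr3b (0.98) and adam22 (0.98), and for stmn2b eno2 (0.98), cadpsb (0.98) and sv2bb (0.98). For stmn2a they were map7d2b (0.98), nmnat2 (0.97) and map6b (0.97), for elavl4 csdc2a (0.97), sv2bb (0.96) and ppp3ca (0.96), and for gap43 ppp3ca (0.95), kif5aa (0.95) and syn1 (0.94). elavl3 and stmn1b were alike (0.95), with myt1b and myt1a beside elavl3 (0.95 each) and rab39bb and dync1i1 beside stmn1b (0.95 each); Myt1 proteins are zinc-finger factors of differentiating neurons. stmn1a was most like sinhcafl (0.94), cdca7b (0.93) and parp1 (0.92), and stmn4 like si:dkey-276j7.1 (0.91), marcksb (0.91) and znf281b (0.90). The correlations are over clusters that mix the 3 libraries and are given without a p-value.

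The genotypes were compared to ask whether the genes differ in level when shox2 is disrupted. In neuron-like cells, the median log2 ratio of the 9 genes was 0.09 for mutant over wild-type and 0.20 for heterozygote over wild-type, and -0.04 for mutant over heterozygote. At least 1.5-fold differences from wild-type were found for gap43 (higher) and stmn4 (lower) in mutant, and for gap43 (higher) and stmn1a (lower) in heterozygote. Thus 2 of 9 genes passed this size in each comparison, where 13.5% of 2703 genes (mutant) and 10.6% of 2618 genes (heterozygote) did, and where the median over all these genes was 0.10 and 0.04. Between mutant and heterozygote, only stmn4 passed it, at -0.70 (95% interval -0.87 to -0.53), where 2.54% of 2639 genes did. Both comparisons use the same wild-type library. Within the class, stmn4 in mutant passed 1.5-fold over wild-type only in cluster 36, and stmn1a in heterozygote only in cluster 3. In mutant, cluster 3 had stmn1a lower and elavl4 higher by this size. For mutant, 15.8% of 2698 genes passed in cluster 3 and 19.7% of 2708 in cluster 36. For heterozygote it was 12.1% of 2608 and 19.2% of 2634.

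gap43 had 1111 CPM in mutant, 1207 CPM in heterozygote and 727 CPM in wild-type neuron-like cells. The log2 ratio was 0.61 (95% interval 0.55 to 0.67) for mutant over wild-type and 0.73 (95% interval 0.68 to 0.78) for heterozygote over wild-type. It was higher than in wild-type within cluster 3 (1273 CPM in mutant and 1366 CPM in heterozygote, against 813 CPM in wild-type) and within cluster 36 (619 and 619.8 CPM, against 407 CPM). Also in cells with 40 or more other pan-neuronal genes, gap43 had 2389 CPM in mutant, 2422 CPM in heterozygote and 1679 CPM in wild-type, a log2 ratio of 0.51 (0.35 to 0.67) for mutant over wild-type and 0.53 (0.39 to 0.67) for heterozygote over wild-type. In cluster 31 it was not higher, at 1797 CPM in mutant, 1726 CPM in heterozygote and 1936 CPM in wild-type. The mutant ratio passed 1.5-fold in 6 of 11 alternative treatments of the data (0.52 to 0.76), and the heterozygote ratio in 11 of 11 (0.61 to 0.89).

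In neuron-like cells as a class, elavl4 and stmn1b were also above wild-type in both other libraries, by less than 1.5-fold. For stmn1b the log2 ratios of both libraries passed 1.5-fold in neural cells with 10 to 19, 25 to 29 and 35 to 39 of the other pan-neuronal genes. With 10 to 14 genes they were 0.85 (95% interval 0.53 to 1.16) for mutant and 1.06 (95% interval 0.79 to 1.34) for heterozygote over wild-type. With 15 to 19 genes they were 1.46 (95% interval 1.11 to 1.81) and 1.22 (95% interval 0.87 to 1.56). With 25 to 29 genes they were 0.95 and 0.75, and with 35 to 39 genes 0.62 and 0.72. In the other groups the mutant ratio was under this size. The share of all genes past 1.5-fold in these groups is not given. In the neuron-like class, stmn1b had log2 ratios of 0.43 (95% interval 0.38 to 0.48) for mutant over wild-type and 0.47 (95% interval 0.43 to 0.52) for heterozygote over wild-type. Its levels there were 1450.2 CPM in mutant, 1492 CPM in heterozygote and 1075 CPM in wild-type. For elavl4 the log2 ratios of the class were 0.42 (95% interval 0.39 to 0.46) and 0.40 (95% interval 0.37 to 0.44). The neuron-like clusters disagreed on elavl4. In cluster 3 it had 2645 CPM in mutant, 2466 CPM in heterozygote and 1659 CPM in wild-type, and in cluster 36 1392 CPM in mutant, 1703 CPM in heterozygote and 2042 CPM in wild-type, so that mutant over wild-type was 0.67 (95% interval 0.63 to 0.72) in cluster 3 and -0.55 (95% interval -0.65 to -0.46) in cluster 36. Whether the clusters differ in this was not tested, and cluster 36 was much shallower in the mutant and heterozygote libraries.

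The remaining genes were close to wild-type in neuron-like cells. stmn2a, stmn2b and gng3 had log2 ratios between 0.01 and 0.24 in both comparisons, and elavl3, the most abundant of the 9, had 0.06 (95% interval 0.04 to 0.09) for mutant over wild-type and -0.06 (95% interval -0.09 to -0.04) for heterozygote over wild-type. A difference of 1.5-fold lay outside the interval of each of these ratios.

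**Figure D4:**
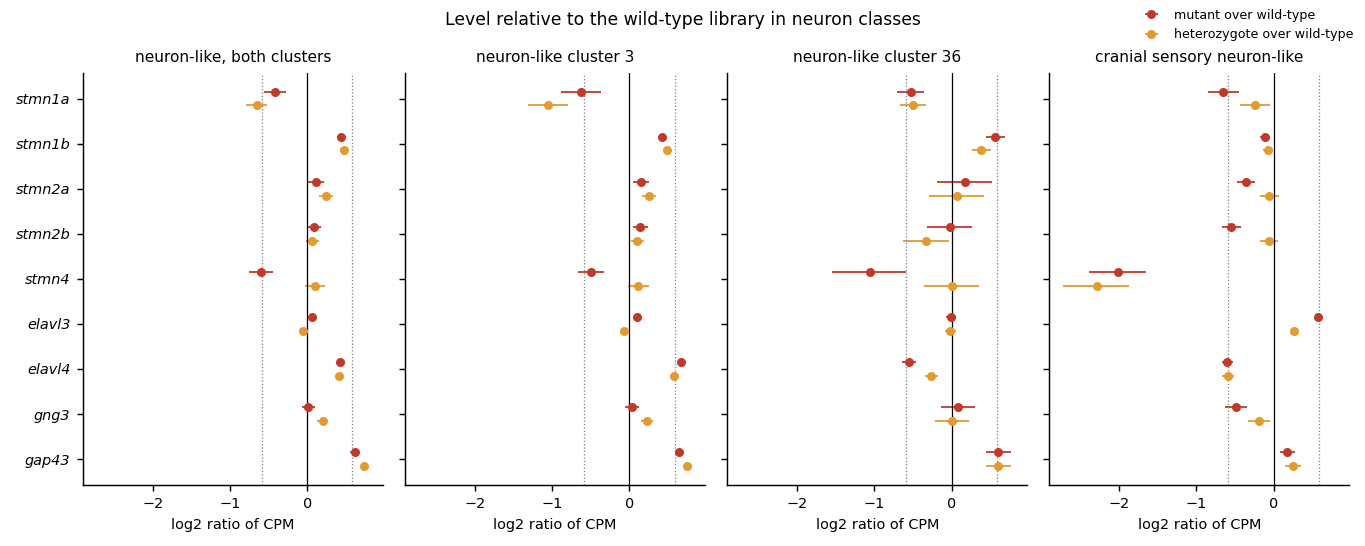
Log2 ratio of CPM to the wild-type library for each gene in neuron-like cells, in each of their 2 clusters and in cranial sensory neuron-like cells, with 95% intervals of the counts; dotted lines mark a 1.5-fold difference. gap43 lies to the right in all 3 neuron-like panels, elavl4 changes side between clusters 3 and 36, and stmn4 lies far to the left in cranial sensory neuron-like cells.

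Leaving out the shallower copies of shared barcodes gave medians of 0.08 for mutant over wild-type, 0.20 for heterozygote over wild-type and -0.04 for mutant over heterozygote. Without any shared barcode, the first 2 were 0.28 and 0.34, and gap43 was at 0.76 for mutant and 0.89 for heterozygote over wild-type, stmn4 at -0.37 for mutant, and stmn1a at -0.35 for heterozygote, both then under 1.5-fold. Epidermis markers moved with the libraries in this class: the 15 markers found summed to 248 CPM in mutant, 1040.4 CPM in heterozygote and 149.6 CPM in wild-type neuron-like cells, and none of them was at 0. Markers of cranial sensory neurons summed to 693 CPM in mutant, 507 CPM in heterozygote and 385 CPM in wild-type over 15 genes, of which 2, 1 and 2 were at 0. Neural progenitor markers summed to 6073 CPM in mutant, 5487 CPM in heterozygote and 4763 CPM in wild-type over 19 genes, none at 0, and neuron markers to 8988, 8803 and 9218 CPM. Endothelium markers summed to 7.48, 16.3 and 71.5 CPM over 12 genes, of which 5, 5 and 4 were at 0. Their part in the ratios was not tested.

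In cranial sensory neuron-like cells, stmn4 and elavl4 were lower than in wild-type and gap43 was not. Relative to wild-type, stmn1a, stmn4 and elavl4 were at least 1.5-fold lower in mutant (3 of 9, where 17.5% of 2788 genes passed in either direction and 5.81% were lower), and stmn4 and elavl4 in heterozygote (2 of 9, where 13.1% of 2719 genes passed and 4.6% were lower). stmn4 had 32.9 CPM in mutant, 27.2 CPM in heterozygote and 133 CPM in wild-type, a log2 ratio of -2.02 (95% interval -2.40 to -1.66) for mutant over wild-type and -2.29 (95% interval -2.73 to -1.88) for heterozygote over wild-type. elavl4 had 1261 CPM in mutant, 1270.4 CPM in heterozygote and 1913 CPM in wild-type, with ratios of -0.60 (95% interval -0.67 to -0.53) and -0.59 (95% interval -0.66 to -0.52). gap43 was at 0.18 (95% interval 0.08 to 0.28) and 0.25 (95% interval 0.15 to 0.35).

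Some genes of this class differed between mutant and heterozygote as well. elavl3 had 6023 CPM in mutant, 4889 CPM in heterozygote and 4056 CPM in wild-type, which is 0.57 (95% interval 0.53 to 0.61) for mutant over wild-type and 0.30 (95% interval 0.26 to 0.34) for mutant over heterozygote. stmn2b had 429.9 CPM in mutant, 601 CPM in heterozygote and 628 CPM in wild-type, and mutant over heterozygote was -0.48 (95% interval -0.60 to -0.37). No gene of the 9 passed 1.5-fold between mutant and heterozygote, where 5.65% of 2727 genes did. Epidermis markers summed to 425 CPM in mutant, 1889.6 CPM in heterozygote and 253 CPM in wild-type here (15 genes, of which 0, 1 and 0 were at 0). Neural progenitor markers summed to 7366 CPM in mutant, 6513 CPM in heterozygote and 5828 CPM in wild-type (19 genes, none at 0), in the same order as elavl3. Muscle markers summed to 203 CPM in mutant, 133 CPM in heterozygote and 98.99 CPM in wild-type (11 genes, of which 6, 4 and 5 were at 0). The part of these markers in the ratios was not tested.

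Shared barcodes weighed more in this class. Of its cells, 19 of 113 in mutant, 3 of 92 in heterozygote and 16 of 93 in wild-type had a shared barcode, and these held 9.02%, 0.131% and 31.9% of the UMIs of the class. The shallower copies held only 1.07%, 0.131% and 0% of them, so leaving out all shared barcodes mainly removed deep cells, most of all in wild-type. Without them the ratios of several genes moved. gap43 was then at 0.58 for mutant and 0.85 for heterozygote over wild-type, the second past 1.5-fold. stmn2a was at 0.40 for mutant over wild-type and 1.00 for heterozygote over wild-type, against -0.36 and -0.05 with all cells. For stmn2b the values were -0.06 for mutant and 0.66 for heterozygote over wild-type, against -0.55 and -0.06. Both stmn2 genes then passed 1.5-fold in mutant over heterozygote, at -0.60 for stmn2a and -0.72 for stmn2b. stmn4 stayed lower than in wild-type, at -1.74 for mutant and -1.71 for heterozygote, as did stmn1a in mutant at -0.64, while elavl4, at -0.58 and -0.53, came to lie just under 1.5-fold. The values of gap43 and of both stmn2 genes in this class thus depended on whether cells with a shared barcode, deep ones included, were kept. Ratios that leave out only the shallower copies are not given for this class.

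stmn1a and stmn4 were lower than wild-type in both other libraries far beyond the neurons. Over all cells, stmn1a had 402 CPM in mutant, 426 CPM in heterozygote and 717 CPM in wild-type, and stmn4 19.6 CPM in mutant, 20.9 CPM in heterozygote and 72.9 CPM in wild-type. The log2 ratios were -0.83 and -1.90 for mutant over wild-type, -0.75 and -1.80 for heterozygote over wild-type, but -0.08 and -0.10 for mutant over heterozygote. Of 2566 genes, 64 (2.49%) were at least 1.5-fold lower than wild-type in both libraries over all cells, and these 2 stathmins were among them. Taken singly, 3.49% of 2550 genes were lower in mutant and 3.12% of 2471 genes in heterozygote. Without shared barcodes the ratios were -0.85 and -1.87 for mutant over wild-type and -0.78 and -1.80 for heterozygote over wild-type.

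For stmn4 this held class by class. The ratio of mutant over wild-type was below 0 in 12 of 12 classes, and so was its interval, from -3.94 (95% interval -5.86 to -2.52) in pigment-like cells to -0.60 in neuron-like cells, with a median of -2.69. The value in pigment-like cells rests on 4 mutant and 66 wild-type UMIs. The counts of classes do not apply the entry level of 50 CPM. stmn4 was under it in the endothelium-, epidermis-, heart and lateral plate-, notochord and floor plate-, pigment-, and placode and lateral line-like classes. In heterozygote over wild-type it was below 0 in 11 of 12 classes, with neuron-like cells as the exception at 0.10 (95% interval -0.03 to 0.22). In otic vesicle-like cells stmn4 had 9.45 CPM in mutant, 7.32 CPM in heterozygote and 85.9 CPM in wild-type, and in pharyngeal endoderm-like cells 4.76 CPM in mutant, 6.97 CPM in heterozygote and 59.8 CPM in wild-type. In cells with 40 or more other pan-neuronal genes the ratio over wild-type was 0.31 (-0.17 to 0.77) for mutant and 0.38 (-0.04 to 0.79) for heterozygote.

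stmn1a was below wild-type in 11 of 12 classes in both comparisons, lowest at -1.36 in epidermis-like cells of the mutant library, with the notochord and floor plate-like class as the exception, at 0.06 (95% interval -0.22 to 0.34) for mutant and 0.35 (95% interval 0.08 to 0.62) for heterozygote. Its interval lay below 0 in 11 classes for mutant and 10 for heterozygote. It was lower by at least 1.5-fold in 8 classes for mutant and 6 for heterozygote. In otic vesicle-like cells it had 516 CPM in mutant, 584 CPM in heterozygote and 947 CPM in wild-type. In neural progenitor-like cells, both stathmins were lower by at least 1.5-fold in mutant, at -0.96 (95% interval -0.99 to -0.93) for stmn1a and -1.69 (95% interval -1.79 to -1.58) for stmn4. This makes 2 of 9 genes, where 18.4% of 2434 genes passed in either direction and 4.72% were lower. In heterozygote over wild-type they were at -0.74 and -1.61 (2 of 9, where 13.5% of 2387 genes passed and 4.06% were lower). For mutant, both passed in 9 of 9 alternatives, and for heterozygote stmn4 in 9 of 9 and stmn1a in 6 of 9.

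The progenitor-like clusters themselves were divided by library: cluster 0 held 14 mutant, 33 heterozygote and 873 wild-type cells, cluster 5 held 4, 10 and 612, and cluster 6 held 356, 607 and 21. Clusters mostly of 1 library may be that library and not a cell type. Clusters 2, 8, 9, 14 and 28 each had 126 or more cells from every library, and only clusters 2 and 9 are given here by library. Clusters 2 and 9, with 126 or more cells from every library, gave the same direction: stmn1a had 605 CPM in mutant, 795 CPM in heterozygote and 1241 CPM in wild-type in cluster 2 and 325 CPM in mutant, 378 CPM in heterozygote and 531 CPM in wild-type in cluster 9, and stmn4 had 5.63 CPM in mutant, 16.1 CPM in heterozygote and 70.6 CPM in wild-type in cluster 2 and 12.6 CPM in mutant, 8.91 CPM in heterozygote and 93.8 CPM in wild-type in cluster 9.

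**Figure D5:**
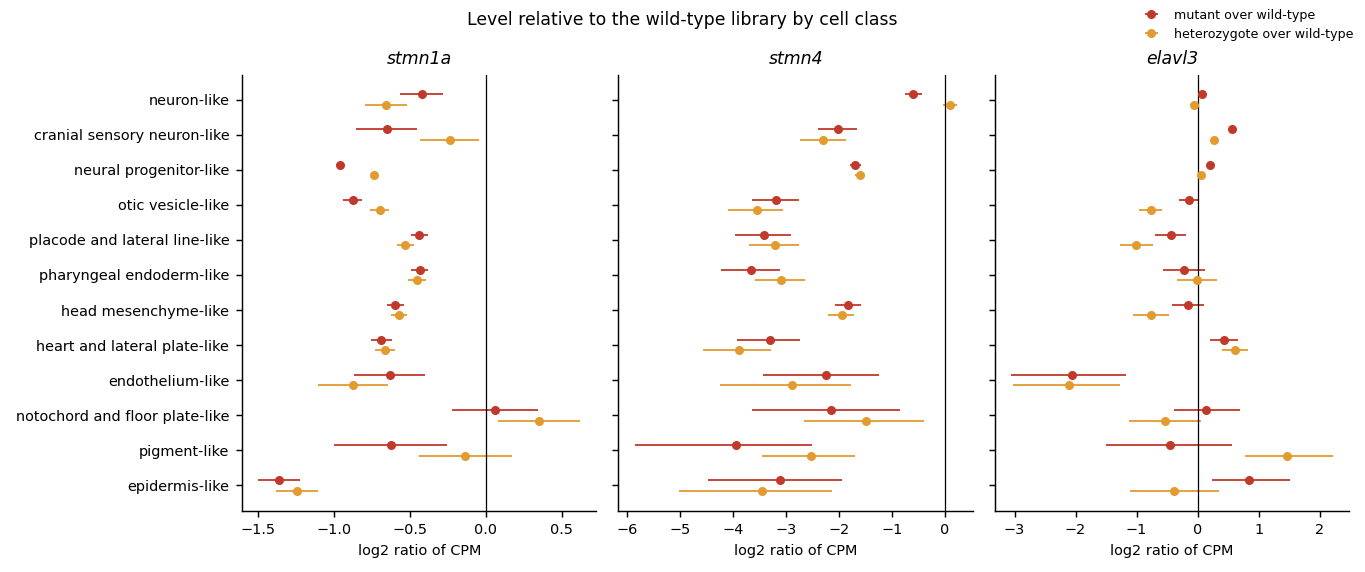
Log2 ratio of CPM to the wild-type library for stmn1a, stmn4 and elavl3 in 12 classes, with 95% intervals of the counts. stmn4 lies left of 0 in every class but neuron-like cells of the heterozygote library, stmn1a in every class but that of notochord and floor plate, and elavl3 on both sides of 0.

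The other pan-neuronal genes give the setting for these values. The list of 109 genes was chosen with earlier results of these data known, and 106 were found. Of the 69 with at least 50 CPM in either class in each library, 61 were at least 2-fold higher in neuron-like than in neural progenitor-like cells in all 3 libraries and 0 were lower, where 24.2% of all 2739 genes were higher and 17.7% lower. Of the 69, 50 were under this level in neural progenitor-like cells of at least 1 library, and a gene that enters only through neuron-like cells must be higher there. By level in neuron-like cells they were led by tubulin genes, among them tubb2b (7308, 7407 and 6035 CPM in mutant, heterozygote and wild-type), tuba1a (3227, 3533 and 3381 CPM), tuba1c (2126, 2449 and 2843 CPM) and tubb5 (2052, 2195 and 2391 CPM), with tmsb and tubb4b next.

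Between libraries, most of these genes differed little. In neuron-like cells, 73 were compared for mutant over wild-type, of which 7 were at least 1.5-fold higher (nfasca, islr2, ywhag2, uchl1, gapdhs, stmn3 and stmn4l) and 6 lower (tuba1b, dclk1b, nefma, gpm6aa, syt2a and nsg2), where 9.91% of all genes compared were higher and 3.63% lower. Their median log2 ratio was 0.10, the same as that of all genes. For heterozygote over wild-type, 6 were higher and 4 lower of 73, against 7.1% and 3.48% of all genes, and for mutant over heterozygote 2 were higher and 0 lower of 74, against 1.55% and 0.985%. Of the highest ratios for mutant over wild-type, islr2, a membrane protein of axons, was at 0.83 (0.66 to 1.00), and the further stathmins stmn3 and stmn4l were at 0.77 (0.63 to 0.90) and 0.76 (0.60 to 0.93). stmn3 had 214 CPM in mutant, 225 CPM in heterozygote and 126 CPM in wild-type, and stmn4l had 147, 144 and 86.6 CPM. The lowest were tuba1b at -1.37 (-1.57 to -1.18), gpm6aa at -0.84 (-0.95 to -0.72) and dclk1b at -0.64 (-0.83 to -0.46).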

How the data were processed

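Per the file headers and the study's methods, the authors made the deposited UMI counts per gene and cell barcode with Cell Ranger 4.0.0 against GRCz11 with DsRed and EGFP added, and normalised nothing. Reads that fit near-identical gene copies may have been split or dropped in counting, which was not tested. The 9 genes and all gene lists were chosen with earlier results of these data known.

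Cells were filtered as described, scaled to 10000 counts, reduced to 2484 variable genes and 40 principal components after regression on depth and mitochondrial share, and clustered by Leiden at resolution 1 on 10 neighbours with scanpy 1.11.5 (Python 3.11.15). A marker was raised at 2 times the mean of the clusters. A class name needed 3 raised markers, and 10 clusters with 7263 cells stayed unnamed. Scrublet called 3, 1 and 5 cells in mutant, heterozygote and wild-type, which shows that it did not work, so no doublet was removed and the 8% with the highest scores were left out in an alternative.

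UMIs were summed per library and class. Levels carry exact Poisson intervals, ratios exact conditional binomial intervals and shares Clopper-Pearson intervals (scipy 1.17.1), all at 95% and for counting error only. Genes entered a comparison at 50 CPM or more. A count of 0 was set to a floor of 3 UMIs per library. Libraries for mutant over wild-type in neuron-like cells were simulated as Poisson counts around the wild-type levels, with 200 of 2400 genes changed 2-fold up or down. Of the changed genes, 100% were recovered at 1.5-fold, and 95.92% of intervals held the true ratio. The draws had no variation between cells or libraries, so they check the calculation only and not the comparison of genotypes. Genes named beside the 9 are those most correlated with each, and the 6 highest, 3 highest-ratio and 3 lowest-ratio genes of the pan-neuronal list; other genes are named to complete a count or to describe a cluster.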

Additional observations from a re-analysis of the deposited data

Results flagged for a closer look

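elavl3 stood on opposite sides of wild-type in a pair of classes of the heterozygote library. In heart and lateral plate-like cells it had 60.1 CPM in heterozygote and 39.4 CPM in wild-type, a log2 ratio of 0.6094. In otic vesicle-like cells it had 69.1 CPM in heterozygote and 117 CPM in wild-type, a log2 ratio of -0.765. Both differences pass 1.5-fold, as did 9.78% of 2474 genes in the first class and 13.2% of 2571 genes in the second. The pair is not the only one. Without the entry level of 50 CPM, elavl3 passed 1.5-fold in this comparison in 6 of 12 classes, lower in 4 and higher in 2. The range was from -2.10 in endothelium-like to 1.47 in pigment-like cells. The difference between the classes was not tested.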

How the results depend on the processing

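With 1 library per genotype, no replicate could be left out, and depth limits only the counting error of each value. No paired analysis was possible because each genotype has a single library and no test was run. The number of genes at least 2-fold higher in neuron-like than in neural progenitor-like cells in all 3 libraries was 7 or 8 under 11 alternatives. The median ratio of the 9 genes in neuron-like cells depended on the setting, and 9 pairs of a comparison and a setting are given here. For mutant over wild-type (0.09) it was 0.0097 with median-of-ratios scaling, -0.0053 with values centred within each library before clustering, -0.0060 with cluster 36 alone and 0.28 without shared barcodes. For heterozygote over wild-type (0.20) it was 0.0022 with cluster 36 alone and 0.34 without shared barcodes. For mutant over heterozygote (-0.04) it was -0.14 at Leiden resolution 0.5, -0.11 without the 8% highest doublet scores and -0.17 with centring. Leaving out these doublet scores also gave 6 genes past 1.5-fold for mutant over wild-type in neural progenitor-like cells, in place of 2. They include elavl3, at -0.81 against 0.21 in the main setting. They also include stmn1b (-0.74 against 0.04), elavl4 (-0.83 against 0.20) and gap43 (-0.77 against -0.34). For elavl3, stmn1b and elavl4 the sign was thus reversed. In heterozygote over wild-type, elavl3 went from 0.06 to -0.85. stmn1b, elavl4 and gap43 were under the entry level of 50 CPM in this class in the main setting. Of 54 ratios of single genes in these classes, 10 passed 1.5-fold, 6 of them under every alternative, and 0 of the 10 changed sign. Of all genes compared, between 0.848% and 18.4% passed in either direction, depending on class and libraries. This count did not apply the entry level of 50 CPM. Both the 10 and the 6 include gng3 in heterozygote over wild-type neural progenitor-like cells, at -0.69 from 44 and 103 UMIs, which is under that level. In neuron-like cells, stmn4 in mutant over wild-type passed in 8 of 11 alternatives (-1.06 to -0.37) and stmn1a in heterozygote over wild-type in 9 of 11 (-1.40 to -0.35). The causes were not tested. The alternatives on shared barcodes and on single clusters were chosen after seeing the data.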
